A study of Mus musculus with 12 samples.

Results

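The genes described here are the immunoglobulin variable segments, whose symbols start with Ighv, Igkv or Iglv and which held at least 10 reads summed over the 12 libraries. Of 45706 genes in the count table, 348 were variable segments, and 235 of these met the limit: 121 of the heavy chain (Ighv), 111 of the kappa light chain (Igkv) and 3 of the lambda light chain (Iglv). Another 43 segments held 1 to 9 reads and 70 held none. Igkv13-76 and Igkv1-35, each with 8 reads, and Ighv11-1 with 9 lay just below the limit, and Igkv14-126-1, Ighv1-21 and Ighv1-21-1 lay on it with 10 each. A filter on low counts left 199 of the 235 to be tested (98 Ighv, 98 Igkv and 3 Iglv). The other 36 held 10 to 75 reads each, nearly all of them in regulatory libraries, and reached at most 1.55 CPM in any library. The annotation gave 33 of the 235 as pseudogenes, 12 of them tested, and these held 0 to 0.605% of variable segment reads per library.

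The libraries held polyadenylated RNA of mouse conventional and regulatory T cells from wild-type (WT) mice and from mice without Coro1a (KO, with the genotype label Coro1-/-), the gene of coronin 1, a protein that binds actin. WT conventional, KO conventional, WT regulatory and KO regulatory cells gave 3 libraries each. The labels give no strain, age, organ or sorting scheme. Nothing in them says that every replicate came from a separate animal, so p-values measure only the spread between these libraries, part of which may be technical. Levels are given as counts per 1000000 gene reads (CPM), scaled with TMM factors, or as the share of all Ighv, all Igkv or all Iglv reads in a library.

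Antibodies consist of heavy and light chains. In developing B cells each chain gene is assembled by joining a variable segment, chosen from many, to joining segments, and in the heavy chain also to a diversity segment. The assembled exon is transcribed together with a constant gene such as Ighm, Igha or Igkc, so reads over a variable segment show which segments a population of B cells or plasma cells uses. T cells assemble T cell receptor genes instead, and are known to transcribe parts of the heavy chain locus without an assembled variable exon.

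Libraries held 19686870 to 33404302 gene reads. Coro1a stood at 2123 to 2711 CPM in the 6 WT libraries and 20.9 to 47.2 CPM in the 6 KO libraries. In KO conventional replicate 3 and WT regulatory replicate 1 every nonzero gene count was even, against 45.7% to 47.5% of them in the other 10 libraries. CPM and shares do not depend on such a factor, and intervals for these 2 libraries use halved counts. WT regulatory replicate 3 and KO regulatory replicate 1 held both Xist, at 753 and 570 CPM, and Y-linked transcripts, at 19.9 and 60.6 CPM (sex-linked values are before TMM scaling). Replicates 1 and 2 of both conventional groups held Xist at 1162 to 1875 and Y-linked transcripts at up to 0.0313 CPM. Replicate 3 held Y-linked transcripts at 516 (WT) and 502 (KO) and Xist at up to 0.43 CPM, and so came from other animals. The remaining regulatory libraries held Y-linked transcripts at 277 to 301 and Xist at up to 1.52 CPM. Sex was thus uneven within groups and between cell types. The regulatory libraries held Foxp3, the defining factor of regulatory T cells, at 443 to 641 CPM and Cd4 at 336 to 548 CPM. They also held the B cell gene Ms4a1 at 690.1 to 982 CPM and summed erythroid genes at 3659 to 6758 CPM, so the label does not name all cell types whose RNA was present. In conventional libraries Ms4a1 stood at 0.0652 to 3.89 CPM.

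The summed level of the variable segments set the 4 groups far apart. It was 22.3, 8.67 and 7.17 CPM in WT conventional replicates 1 to 3 and 77.8, 80.7 and 200.2 CPM in KO conventional ones. It was 3532, 6349.8 and 2983 CPM in WT regulatory and 2054, 2541 and 2921 CPM in KO regulatory replicates. WT conventional libraries were lowest, KO conventional ones next and regulatory ones highest, and no neighbouring groups overlapped. The KO and WT regulatory groups were separated only narrowly, between 2921 and 2983 CPM, and WT regulatory replicate 2 stood above every other library. Group means were 12.7 ± 8.33 CPM in WT conventional, 119.6 ± 69.9 in KO conventional, 4288 ± 1806 in WT regulatory libraries and 2505 ± 435 in KO regulatory ones (SD, n = 3). The KO conventional mean was 9.41 times the WT conventional one. The KO regulatory mean was 0.584 times the WT regulatory one, or 0.769 times without WT regulatory replicate 2. In bulk RNA, fewer cells of a type and less RNA per cell cannot be told apart.

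Heavy chain segments summed to 3.30 to 9.89 CPM in WT conventional, 33.2 to 88.6 CPM in KO conventional, 1169.8 to 2369 CPM in WT regulatory libraries and 783 to 1113 CPM in KO regulatory ones. Kappa segments summed to 3.78 to 10.6, 41.8 to 107, 1643 to 3594 and 1132 to 1659.8 CPM in the same groups. Lambda segments summed to 0.0961 to 1.78, 2.05 to 4.92, 170.4 to 387 and 128 to 147 CPM. All 3 loci were higher in KO than in WT conventional libraries, whereas in regulatory libraries the genotypes overlapped for kappa and did not for heavy and lambda segments.

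**Figure D1:**
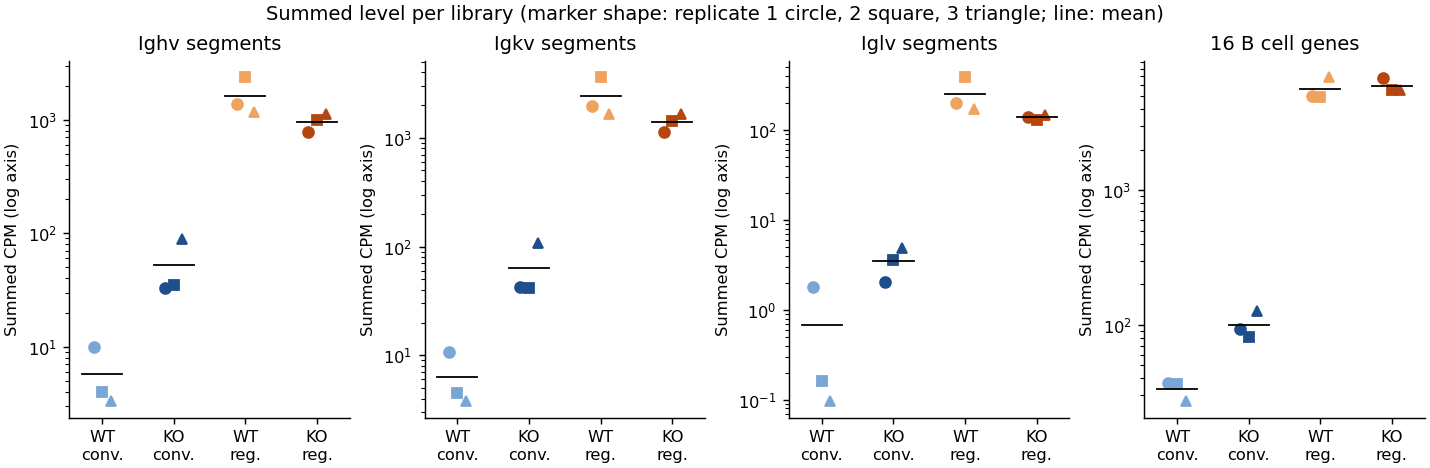
Summed CPM (log axis) of Ighv, Igkv and Iglv segments and of 16 B cell genes in each of the 12 libraries, where conv. and reg. are conventional and regulatory T cells, circles, squares and triangles are replicates 1, 2 and 3, and lines are group means. All KO conventional libraries lie above all WT conventional ones, and WT regulatory replicate 2, at 6349.8 CPM over the 3 loci, lies above the other regulatory libraries for the segments but not for the B cell genes.

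Markers of the cells known to make antibodies differed between the groups as well. Summed over 16 B cell genes, the level was 36.8, 36.3 and 27.0 CPM in WT conventional libraries and 93.7, 80.7 and 127 CPM in KO conventional ones. It was 5016, 4932 and 6900.1 CPM in WT regulatory libraries and 6804, 5585 and 5575 CPM in KO regulatory ones, where the genotypes overlapped. Divided by this sum, the summed segment level was 0.606, 0.239 and 0.266 in WT conventional libraries and 0.831, 1.00 and 1.58 in KO conventional ones. The same ratio was 0.704, 1.29 and 0.432 in WT regulatory libraries and 0.302, 0.455 and 0.524 in KO regulatory ones. The ratio was thus higher in every KO than in every WT conventional library, and overlapped between the regulatory groups. The part of B cell RNA in the segment levels was not tested.

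Kappa variable and constant reads stood in nearly the same ratio in all groups. Igkv CPM divided by the CPM of Igkc, the kappa constant gene, was 0.417 to 0.567 in WT conventional, 0.445 to 0.481 in KO conventional, 0.433 to 0.497 in WT regulatory libraries and 0.400 to 0.467 in KO regulatory ones. The heavy chain ratio, Ighv CPM over the summed CPM of the heavy chain constant genes, differed by group. It was 0.0174, 0.00691 and 0.00557 in WT conventional, 0.0538, 0.0508 and 0.0979 in KO conventional, 0.147, 0.148 and 0.130 in WT regulatory libraries and 0.110, 0.123 and 0.118 in KO regulatory ones, with no overlap between any groups. Ighm, the constant gene of IgM, stood at 525 to 581 CPM in WT conventional libraries and 474 to 581 CPM in KO conventional ones, which overlapped although their heavy chain segment sums did not. WT conventional libraries therefore held Ighm reads with few variable segment reads beside them.

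Lambda reads made up a small part of the light chain variable reads. Their share was 14.4%, 3.47% and 2.48% in WT conventional, 4.59%, 7.997% and 4.41% in KO conventional, 9.13%, 9.72% and 9.40% in WT regulatory libraries and 10.95%, 8.29% and 8.16% in KO regulatory ones. WT conventional replicate 1 held 53 lambda reads, which gave a 95% Wilson interval of 11.2% to 18.3%, and replicate 3 held 3, with an interval of 0.847% to 7.04%. Reads are not independent molecules, so intervals cover counting error only. The lambda shares of WT and KO libraries overlapped in both cell types.

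The 3 lambda segments lie on chromosome 16 of build GRCm38, Iglv1 at chr16:19085017-19085500, Iglv3 at chr16:19241207-19241690 and Iglv2 at chr16:19260401-19260859, all on the minus strand and annotated as variable segment genes. Iglv1, known from antibodies against the nitrophenyl hapten, and Iglv2 are near copies, and their coding sequences differ at 11 positions, an identity of 96.9%. Both are shown because a read that fits both equally well is tallied as mapping to several places and is counted for neither. The sequences are bases 52 to 351 of the coding sequences of GENCODE M21 transcripts on GRCm38, 5′ to 3′, with the 8 differing bases of this stretch in capitals.
Iglv1: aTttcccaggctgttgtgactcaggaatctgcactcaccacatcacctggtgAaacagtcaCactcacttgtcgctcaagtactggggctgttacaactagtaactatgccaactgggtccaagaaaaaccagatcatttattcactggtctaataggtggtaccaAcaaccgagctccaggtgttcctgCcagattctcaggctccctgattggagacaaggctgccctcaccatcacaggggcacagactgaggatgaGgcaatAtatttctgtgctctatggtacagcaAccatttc
Iglv2: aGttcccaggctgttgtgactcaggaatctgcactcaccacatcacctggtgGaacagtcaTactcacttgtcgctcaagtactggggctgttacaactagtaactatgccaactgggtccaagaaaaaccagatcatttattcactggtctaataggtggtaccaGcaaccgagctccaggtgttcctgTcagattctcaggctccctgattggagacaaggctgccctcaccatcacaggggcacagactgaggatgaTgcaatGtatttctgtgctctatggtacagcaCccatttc

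Iglv1 had the highest mean level of all the segments over the 12 libraries, 66.3 CPM. It stood at 1.65, 0.0978 and 0 CPM in WT conventional libraries and 1.36, 2.97 and 3.83 CPM in KO conventional ones, which overlapped through WT conventional replicate 1. It stood at 131, 298 and 106 CPM in WT regulatory libraries and 82.9, 77.7 and 90.6 CPM in KO regulatory ones, which did not overlap. Neither knockout difference passed edgeR's quasi-likelihood test (log2 fold change 2.24, SE 0.86, adjusted p = 0.0504 in conventional and log2 fold change -1.09, SE 0.47, adjusted p = 0.17 in regulatory libraries). Iglv2 rose in KO conventional libraries, from 0.0673, 0.0652 and 0.0961 CPM in WT libraries to 0.471, 0.400 and 1.09 CPM (log2 fold change 3.02, SE 0.59, adjusted p = 0.00151, edgeR). By limma-voom it was not called (log2 fold change 2.71, adjusted p = 0.0812). Iglv3, which shares 57.6% with its nearest relative among the segments, held 8, 9 and 0 reads in KO conventional libraries and 22.1 to 29.2 and 21.1 to 26.6 CPM in WT and KO regulatory ones, and passed no knockout test.

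In conventional T cell libraries the knockout held more variable segment RNA. Of the 199 segments tested, 94 were higher and 0 lower in KO than in WT (edgeR's quasi-likelihood test, adjusted p under 0.05), which is 40.0% of the 235, beside 23.3% of all 15922 genes tested called higher, 25.4% called lower and 48.7% called either way. The 94 were 47 Ighv, 46 Igkv and 1 Iglv segments. The 36 segments not tested could not be called, so shares of the 235 called, here and below, are lower than over the 199 tested. At an unadjusted p under 0.05 edgeR gave 111 higher and 0 lower, DESeq2 called 122 higher and 0 lower, and limma-voom 16 higher and 0 lower. The median log2 fold change was 2.96 over the tested segments and -0.05 over all genes. Of the tested segments 76 were without a read in all WT conventional libraries, and fitted changes of these depend on a prior count. With those at a lower bound, set by 3 reads over the group, and 37 left out that had no fold above this floor, the median was 2.84. CPM did not overlap between the groups for 77 segments that were higher in KO and for 0 that were lower, or 32.8% of the 235, beside 28.1% and 35.5% of all genes tested.

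Other cell types moved with this comparison. Of 16 B cell genes 14 were higher in KO conventional libraries (median log2 fold change 3.21), of 10 plasma cell genes 9 (median 1.30) and of 11 tested immunoglobulin constant genes 10 (median 3.02). Summed over 5 neutrophil genes the level was 0.538, 0.684 and 1.54 CPM in WT libraries and 395, 198 and 192 CPM in KO ones, and over 5 macrophage and monocyte genes 174 to 247 and 1253 to 2825 CPM. All 5 neutrophil and all 5 macrophage and monocyte genes were called higher. All 4 regulatory T cell genes of the list were higher as well (median log2 fold change 1.07), with a sum of 133, 83.3 and 82.4 CPM in WT libraries and 202, 356 and 329 CPM in KO ones, and of 4 erythroid genes 3 were higher, with sums of 4.43 to 18.6 and 22.7 to 54.5 CPM. All 6 T cell genes of the list were lower in KO (median -0.55). The part of these cell types in the segment calls was not tested. When libraries were scaled to 8 B cell genes instead of TMM, the calls came to 43 higher and 17 lower and the median over all genes moved to -2.81. Scaled to 6 T cell genes, 127 were higher and 0 lower, with an all-gene median of 0.53. The call count fell to 61 without WT conventional replicate 2, to 61 without replicate 3, and to 58 without KO conventional replicate 3. Without both libraries of even counts it was 55, and without the 2 libraries holding Xist and Y-linked reads 92, all higher in KO.

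The heavy chain segment Ighv1-81 had the largest fitted change of the tested segments. It lies near the far end of the heavy chain locus, at chr12:115920279-115920712 on the minus strand, as member 117 of 121 counted from the joining segments. It held 0 reads in each WT conventional library and 47, 44 and 46 reads in KO conventional replicates 1 to 3, or 1.30, 1.26 and 1.40 CPM. Against the floor of 3 reads over the WT group it was at least 40.3-fold higher (edgeR adjusted p = 2.02e-05). Its nearest relative among the segments, Ighv1-85 at chr12:116000028-116000461, shares 92.9% of its coding sequence, and 88.4% of its stretches of 50 bases occur in no other segment. The pair is shown because Ighv1-81 was also the only segment called higher in KO regulatory libraries. Shown are bases 52 to 351 of the GENCODE M21 coding sequences, 5′ to 3′. Capitals mark 20 bases of each that have no match in an alignment, which counts 25 differences over the whole coding sequence. Where the alignment sets a gap in each sequence, capitals are shifted against each other and some differing bases stand in lower case.
Ighv1-81: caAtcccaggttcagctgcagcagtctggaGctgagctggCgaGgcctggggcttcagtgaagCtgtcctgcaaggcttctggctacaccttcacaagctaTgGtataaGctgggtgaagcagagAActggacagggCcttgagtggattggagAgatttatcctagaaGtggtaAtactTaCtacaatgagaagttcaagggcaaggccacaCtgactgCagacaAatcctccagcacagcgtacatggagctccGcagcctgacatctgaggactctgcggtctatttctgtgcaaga
Ighv1-85: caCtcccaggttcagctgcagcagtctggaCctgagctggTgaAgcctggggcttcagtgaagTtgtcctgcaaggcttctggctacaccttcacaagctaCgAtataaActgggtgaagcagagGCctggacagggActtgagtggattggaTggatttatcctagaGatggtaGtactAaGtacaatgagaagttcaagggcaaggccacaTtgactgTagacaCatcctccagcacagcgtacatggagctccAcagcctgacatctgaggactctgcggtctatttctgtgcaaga

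Among kappa segments, Igkv6-15 rose from 0.235, 0 and 0.160 CPM in WT conventional to 4.68, 7.52 and 11.8 CPM in KO conventional libraries (log2 fold change 5.88, SE 0.74, adjusted p = 9.62e-05, edgeR). It lies close to the joining segments, at chr6:70406469-70406992. It was the most used kappa segment in all 3 KO conventional libraries, with 10.995%, 18.0% and 11.05% of kappa reads, and in none of the other libraries, where Igkv8-30, Igkv15-103, Igkv5-39, Igkv1-110, Igkv8-27, Igkv1-117 or Igkv1-135 led. Igkv4-80 (2, 0 and 0 reads in WT, 12, 7 and 94 in KO; log2 fold change 5.44, SE 1.46, adjusted p = 0.00973) and Ighv8-8 (2, 1 and 1 and 38, 24 and 92 reads; log2 fold change 4.98, SE 0.71, adjusted p = 0.000225) also rose. In both, KO conventional replicate 3 was the highest library. Of the other most abundant segments, Ighv1-26, Ighv1-53, Ighv3-6, Ighv9-3, Ighv1-22, Igkv1-117, Igkv1-110, Igkv1-135 and Igkv10-96 rose, by 2.30 to 4.57 on the log2 scale, and Igkv8-27 did not pass (log2 fold change 3.40, adjusted p = 0.119). Ighv1-26 and Ighv1-53 lost the call without WT conventional replicate 2 or 3 or KO conventional replicate 3, with log2 fold changes of 1.78 to 2.47 and adjusted p of 0.0522 to 0.102. By limma-voom these 2 and Ighv1-22, Igkv1-117, Igkv1-110, Igkv1-135, Igkv10-96, Igkv6-15 and Igkv4-80 were not called (adjusted p 0.0518 to 0.337). Ighv8-8, Ighv3-6 and Ighv9-3 kept the call there.

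Read numbers were low in these libraries. WT conventional libraries held 663, 266 and 224 variable segment reads in all, and KO conventional ones 2809, 2823 and 6590. Of the 235 segments 111 were without a read in all 3 WT conventional libraries, which allows up to 0.0327 CPM per segment over the group, and 50 were without a read in KO conventional ones. Within a group, single libraries differed in the segments they used. Ighv1-55 held 1, 1 and 18 reads in WT conventional replicates 1 to 3, or 0.340%, 0.820% and 17.5% of heavy chain reads, and Igkv5-39 held 3, 3 and 26 reads, or 0.949%, 2.16% and 22.03% of kappa reads, in the same libraries. Ighv1-19 held 0, 5 and 106 reads and Igkv3-7 9, 0 and 166 reads in KO conventional replicates 1 to 3, nearly all of them in replicate 3.

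In regulatory T cell libraries the knockout difference was smaller, mostly downward, and rested on few libraries. Of the 199 tested segments 20 were lower and 1 higher in KO (edgeR's quasi-likelihood test), which is 8.51% and 0.426% of the 235, beside 3.82% of all genes called lower, 4.01% called higher and 7.83% called either way. The 20 were 12 Ighv and 8 Igkv segments. The median log2 fold change was -0.77 over the tested segments and 0.00 over all genes, and 177 of the 199 had a negative fold change. CPM did not overlap for 89 segments that were lower in KO and 5 that were higher, or 37.9% and 2.13% of the 235, beside 13% and 13.2% of all genes tested.

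The number of calls changed strongly with single libraries. It was 1 without WT regulatory replicate 2, where Ighv1-81 remained and the 20 lower calls were lost, and the median log2 fold change of the segments was -0.44. It was 7 without WT regulatory replicate 1, 43 without replicate 3, and 7, 2 and 6 without KO regulatory replicates 1, 2 and 3. It was also 13 without WT conventional replicate 2 and 37 without KO conventional replicate 3, libraries that enter through the shared spread. Without both libraries of even counts 13 were lower and 0 higher, and without the 2 libraries holding Xist and Y-linked reads 23 were lower and 4 higher. Scaled to 6 T cell genes, 15 were lower and 6 higher, with an all-gene median of 0.53, and scaled to 8 B cell genes, 51 were lower and 3 higher. At a threshold of 0.01 edgeR called 0.

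**Figure D2:**
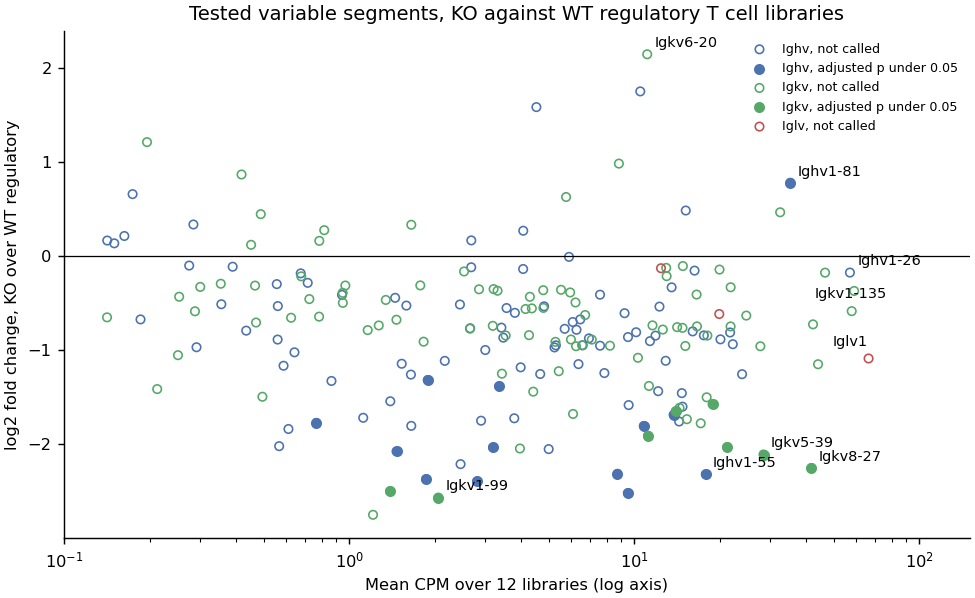
Log2 fold change of KO over WT regulatory libraries for the 199 tested segments, against their mean CPM over 12 libraries (log axis). Filled points have an adjusted p under 0.05 in edgeR's quasi-likelihood test; 1 of them, Ighv1-81, lies above 0 and 20 lie below.

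Ighv1-81 rose in KO regulatory libraries, from 48.4, 53.3 and 52.6 CPM in WT libraries to 65.5, 98.8 and 100.4 CPM (log2 fold change 0.78, SE 0.14, adjusted p = 0.0143, edgeR). Without WT regulatory replicate 1 or KO regulatory replicate 3 the log2 fold change was 0.73 or 0.67 and the adjusted p 0.0527 or 0.0535. Among the segments that fell, Igkv1-99 had the largest change, from 6.60, 7.95 and 5.86 CPM to 0.969, 0.937 and 1.52 CPM (log2 fold change -2.57, SE 0.57, adjusted p = 0.0215). Ighv1-15 followed, from 19.4, 67.5 and 8.21 to 4.34, 5.56 and 6.65 CPM (log2 fold change -2.52, adjusted p = 0.0416), with WT regulatory replicate 2 far above the other WT libraries. Igkv1-132 went from 2.71, 8.85 and 2.61 to 0.625, 0.695 and 1.18 CPM (log2 fold change -2.50, adjusted p = 0.0413) and Ighv1-63 from 6.28, 17.8 and 3.99 to 2.03, 1.96 and 1.34 CPM (log2 fold change -2.40, adjusted p = 0.0441). None of these 4 falls passed when WT regulatory replicate 2 was left out, where they were -1.31 to -2.44 on the log2 scale with adjusted p of 0.0627 to 0.208, and none passed without WT regulatory replicate 1 or KO regulatory replicate 1, 2 or 3 (adjusted p 0.0520 to 0.119). Ighv1-15 also lost the call without WT conventional replicate 1 or 2 or KO conventional replicate 1 or 2 (adjusted p 0.0511 to 0.0628), and Ighv1-63 without WT conventional replicate 2 or 3 or KO conventional replicate 3 (adjusted p 0.0517 to 0.0547). Igkv8-27 was the most abundant segment that fell, from 79.9, 286 and 46.4 CPM in WT libraries to 23.0, 25.97 and 37.5 CPM in KO regulatory libraries (log2 fold change -2.26, SE 0.57, adjusted p = 0.0351), and its change was -1.13 with an adjusted p of 0.142 without WT regulatory replicate 2. It also lost the call without WT conventional replicate 2 or KO regulatory replicate 1, 2 or 3 (adjusted p 0.0548 to 0.101). DESeq2 and limma-voom did not call Igkv8-27 (adjusted p 0.0827 and 0.0624) or Ighv1-15 (0.0548 and 0.149), nor limma-voom Ighv1-63 (0.0534). With only the regulatory groups in the edgeR fit, Ighv1-81, Ighv1-15, Igkv1-132, Ighv1-63 and Igkv8-27 lost the call (adjusted p 0.0578 to 0.118). With the replicate number as a block, all of these but Ighv1-81 lost it (0.0695 to 0.0975).

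Most of the abundant segments passed no test in this comparison. Ighv1-26, the most used heavy chain segment in all 6 regulatory libraries, stood at 112, 168 and 78.3 CPM in WT libraries and 79.7, 100.9 and 136 CPM in KO ones (log2 fold change -0.18, adjusted p = 0.828). Igkv1-135 lay farthest from the joining segments among the 111 kappa segments described here. It stood at 86.6, 121 and 88.4 and 70.0, 100.2 and 91.4 CPM (log2 fold change -0.18, adjusted p = 0.533). Igkv1-117 and Igkv1-110, which lie at chr6:68121046-68121827 and chr6:68270485-68271267 and share 97.2% of their coding sequence, had log2 fold changes of -0.37 and -0.59. The levels of these 4 overlapped between the genotypes.

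In the same libraries the B cell genes did not separate by genotype. Of 16 B cell genes 0 were called in either direction between KO and WT regulatory libraries by edgeR, DESeq2 or limma-voom, 0 had an unadjusted edgeR p under 0.05, and their median log2 fold change was 0.08. Of 10 plasma cell genes edgeR called 0, with 3 lower at an unadjusted p under 0.05 and 1 called lower by DESeq2 and by limma-voom, and of 11 constant genes all 3 tools called 0, with 2 lower at an unadjusted p under 0.05. Igha, the constant gene of IgA, stood at 2571, 6750.3 and 1530.1 CPM in WT libraries and 171, 762 and 1067 CPM in KO regulatory libraries, and Jchain, which joins IgA and IgM subunits in plasma cells, at 805, 1807 and 488 and 218, 438 and 571 CPM. Both were highest in WT regulatory replicate 2, the library with the highest segment sum. Other genes of the plasma cell and constant lists went different ways. The KO regulatory mean was 1.01 times the WT one for Ighm, 1.04 times for Mzb1 and 0.947 times for Xbp1, with overlap. For Sdc1 and Ighd it was 0.859 and 0.948 times, also with overlap. It was 0.158 times for Ighg2c, 0.594 times for Iglc1 and 0.296 times for Tnfrsf17, without overlap. Plasma cells are known to hold far more antibody RNA than other B cells. Of 5 neutrophil genes 3 rose in KO regulatory libraries, with a sum of 38.8, 69.6 and 37.5 CPM in WT libraries and 181, 79.9 and 138 CPM in KO ones. Of 6 T cell genes edgeR called 1 lower, with all 6 lower at an unadjusted p under 0.05 (median log2 fold change -0.49). DESeq2 called 4 of them lower and limma-voom 1. Their sum was 2322, 2230 and 1683 CPM in WT libraries and 1083, 1662 and 1655 CPM in KO ones, without overlap. Of 4 NK cell genes 2 rose, with a sum of 29.7, 46.2 and 23.9 CPM in WT libraries and 56.7, 59.7 and 66.6 CPM in KO ones. Of 5 dendritic cell genes edgeR called 0, with 2 higher at an unadjusted p under 0.05 and 1 called higher by DESeq2 and by limma-voom, while their sum of 38.3 to 64.0 CPM in WT did not overlap with 64.4 to 111 CPM in KO. The part of these cell types in the segment differences was not tested.

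Shares within a locus do not depend on library scaling, and they are given as descriptions without a test. Ighv1-81 made up 3.54%, 2.25% and 4.50% of heavy chain reads in WT regulatory libraries and 8.36%, 9.96% and 9.02% in KO regulatory ones. The 95% Wilson interval was 4.29% to 4.72% in the highest WT library and 8.03% to 8.71% in the lowest KO library. Ighv1-26 made up 8.21%, 7.08% and 6.69% in WT and 10.2%, 10.2% and 12.2% in KO. Both segments held larger shares in every KO than in every WT regulatory library, although only the CPM of Ighv1-81 rose. Of all 235 segments, 27 held a larger and 35 a smaller share in every KO than in every WT regulatory library. Shares have no like count over all genes. In CPM, 13.2% of all genes tested were higher and 13% lower in KO without overlap in this comparison. That is another measure, so the counts of 27 and 35 have no background of their own kind and are not read as a change in usage.

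Kappa segments also differed in share. Igkv8-27 made up 4.06%, 7.97% and 2.82% of kappa reads in WT and 2.03%, 1.83% and 2.26% in KO regulatory libraries, and Igkv5-39 2.92%, 4.32% and 3.74% and 1.37%, 1.27% and 1.81%. Igkv1-135 made up 4.40%, 3.36% and 5.38% in WT and 6.18%, 7.05% and 5.51% in KO. The first pair was lower and Igkv1-135 higher in every KO library. Igkv4-59 and Igkv1-88, chosen after their values were seen, went the same way as Igkv1-135. Igkv4-59 made up 3.003%, 1.66% and 2.69% in WT and 4.69%, 4.59% and 6.40% in KO, and Igkv1-88 0.649%, 0.381% and 0.549% and 2.49%, 1.70% and 1.07%. Only 25.7% of the stretches of 50 bases in Igkv4-59 are unique among the segments, so its counts are uncertain, against all of them in Igkv1-88 and 91.6% in Igkv8-27.

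**Figure D3:**
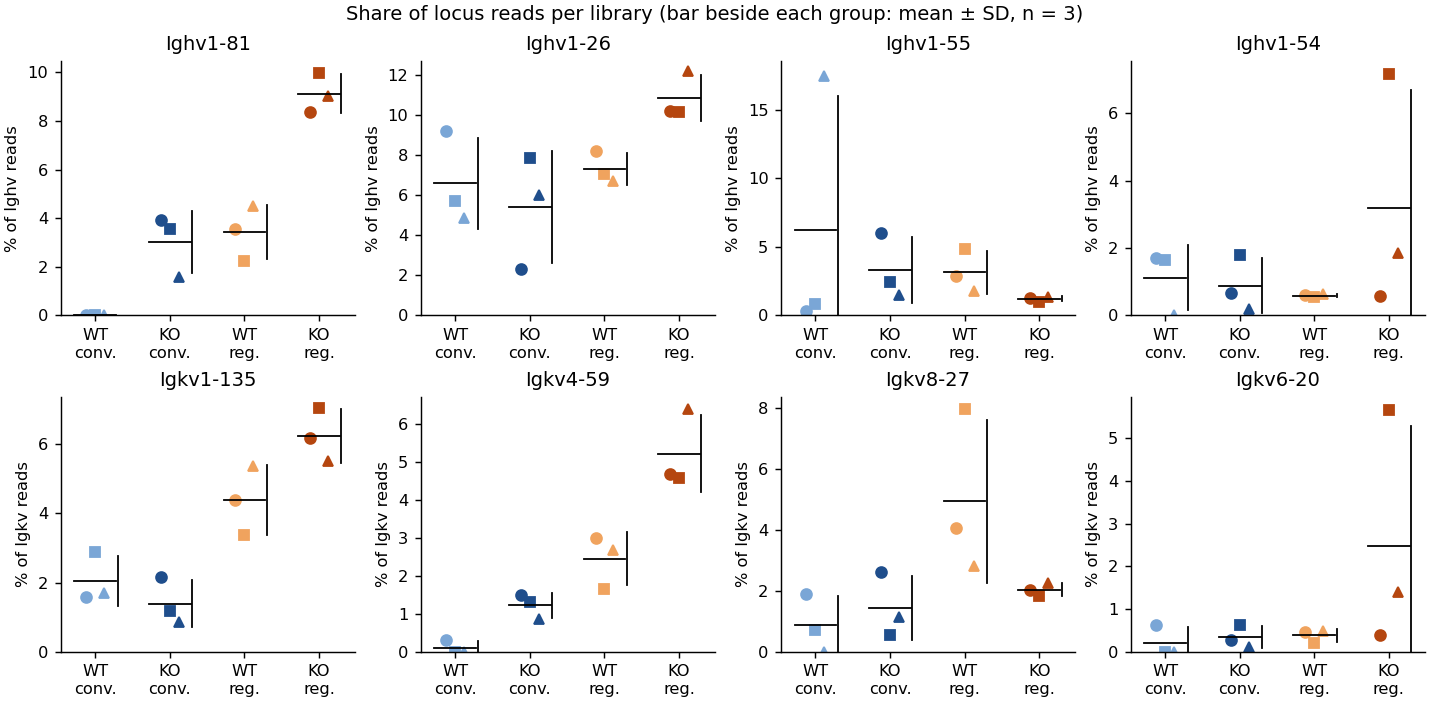
Share of heavy chain (top row) or kappa (bottom row) reads held by 8 segments in each library, in percent, with group means and a bar beside each group for mean ± SD (n = 3), cut off at 0. Ighv1-81 lies at 8.36% or more in KO regulatory libraries and at 4.50% or less in WT regulatory ones, and Ighv1-54 and Igkv6-20 are high in KO regulatory replicate 2.

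Usage of heavy chain segments was less even in the KO regulatory libraries. The effective number of segments, 1 over the sum of squared shares, is the number of equally used segments that would give the same evenness. For the heavy chain it was 40.8, 39.9 and 42.7 in WT and 31.3, 26.9 and 26.7 in KO regulatory libraries, with means of 41.1 ± 1.44 and 28.3 ± 2.64 (SD, n = 3). After thinning every library to 100 heavy chain reads it was 29.5, 29.3 and 30.6 and 24.9, 21.9 and 21.9, again without overlap. For kappa it was 37.0, 34.0 and 37.6 in WT and 35.7, 32.0 and 32.5 in KO, which overlapped. With all reads, 115 to 121 of the 121 heavy chain segments had a read in WT and 117 to 120 in KO regulatory libraries, which leaves little room for a difference. Thinned to 100 reads, 46.4, 45.1 and 46.9 heavy chain segments had a read in WT regulatory libraries on average over the draws and 44.3, 42.8 and 42.8 in KO regulatory ones, fewer in every KO library. In conventional libraries the heavy chain effective number after thinning was 21.6, 17.2 and 14.95 in WT and 23.2, 23.2 and 26.9 in KO, higher in every KO library, whereas the kappa number was 18.9, 22.6 and 11.1 in WT and 16.2, 16.3 and 21.97 in KO, which overlapped.

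**Figure D4:**
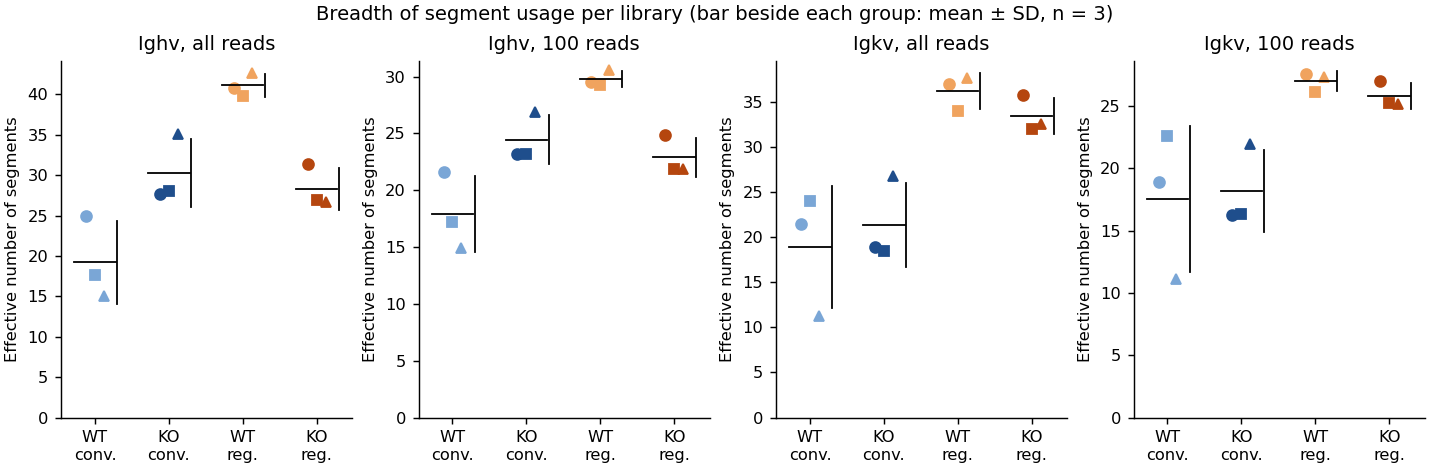
Effective number of heavy chain (left 2 panels) and kappa segments (right 2 panels) per library, from all reads and after thinning to 100 reads, with group means and a bar beside each group for mean ± SD (n = 3). Heavy chain values of KO regulatory libraries (26.7 to 31.3) lie below those of WT regulatory ones (39.9 to 42.7), while kappa values overlap.

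Shares summed over parts of the kappa locus also differed between the regulatory genotypes. When the 111 kappa segments were divided into 3 parts of 37 by their distance from the joining segments, the nearest 37 held 37.7%, 41.1% and 38.9% of kappa reads in WT and 30.6%, 31.7% and 30.2% in KO regulatory libraries. The farthest 37 held 40.0%, 35.6% and 39.8% in WT and 44.4%, 44.4% and 43.9% in KO. The nearest 37 were lower and the other two parts higher in every KO library. For the heavy chain, the nearest 40 segments held 30.1%, 29.0% and 31.5% in WT and 32.1%, 26.8% and 27.8% in KO, which overlapped, as did the other parts. These shares are descriptions with no test, and neighbouring segments are not independent. The part of single abundant segments in these sums was not tested.

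**Figure D5:**
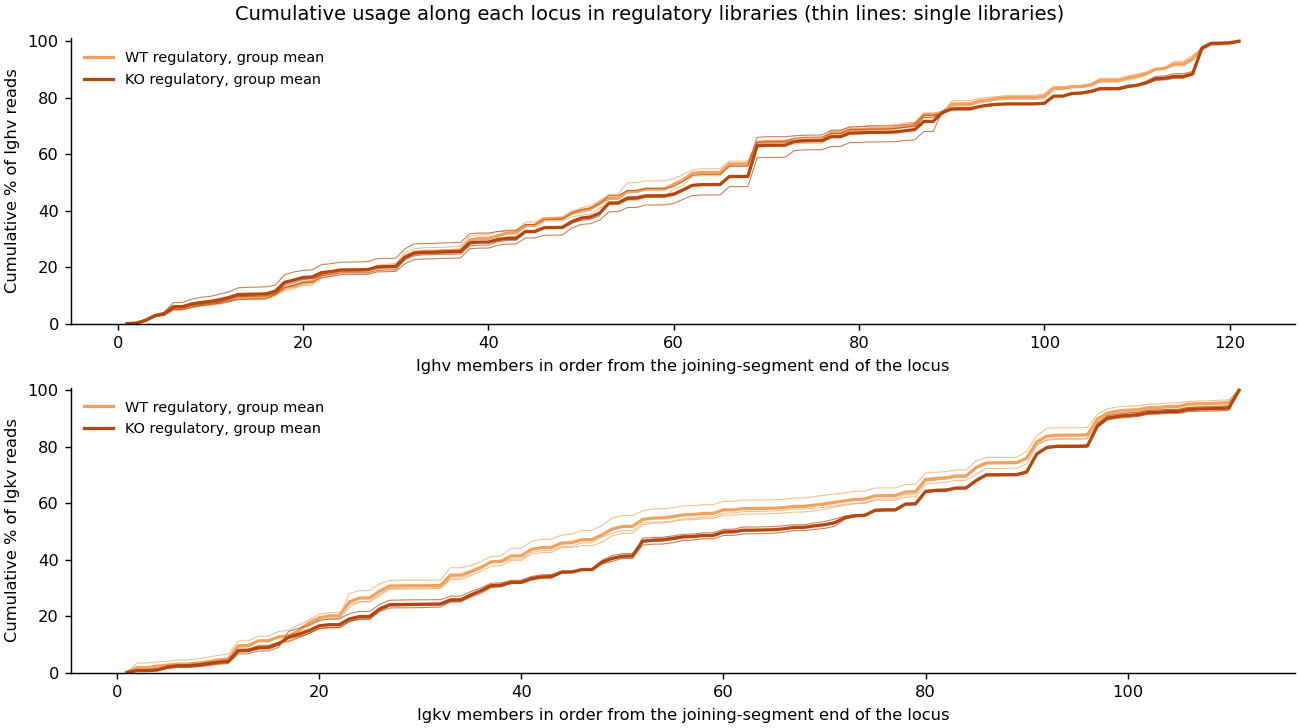
Cumulative share of heavy chain (top) and kappa reads (bottom) in regulatory libraries, in percent, with segments in order from the joining segment end of the locus. Thick lines are group means and thin lines single libraries. After the nearest 37 kappa segments the KO lines stand at 30.2 to 31.7% against 37.7 to 41.1%.

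Segments are named by families of related sequence, and family shares differed in the same libraries. Igkv1, with 10 segments, made up 19.1%, 14.8% and 18.3% of kappa reads in WT and 22.1%, 23.0% and 21.9% in KO regulatory libraries, and Igkv4, with 31, 17.0%, 17.0% and 17.5% and 21.0%, 20.0% and 21.8%. Igkv5, with 5, made up 6.76%, 8.34% and 7.87% in WT and 4.69%, 4.15% and 4.82% in KO, and Igkv8, with 10, 13.5%, 16.4% and 11.9% and 10.7%, 9.44% and 9.63%. Igkv1 and Igkv4 were higher and Igkv5 and Igkv8 lower in every KO library. Of all 35 families, 7 were higher and 9 lower in every KO than in every WT regulatory library, so the 5 named are examples. Family shares have no like count over other genes beside them. Ighv1, the largest heavy chain family with 64 segments, made up 54.9%, 56.7% and 55.6% in WT and 57.3%, 63.1% and 61.3% in KO, also without overlap.

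The order of usage was nonetheless much alike in all regulatory libraries. Across the 121 heavy chain segments the Spearman correlation of shares was 0.943 to 0.972 between WT regulatory libraries, 0.955 to 0.966 between KO regulatory ones and 0.912 to 0.962 between genotypes. Across 111 kappa segments it was 0.956 to 0.976, 0.963 to 0.974 and 0.927 to 0.952. Between conventional libraries of 1 genotype it was 0.658 to 0.738 in KO and 0.36 to 0.50 in WT for the heavy chain. Correlations are lower where read numbers are lower, and segments are not independent, so these are descriptions.

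A few segments were high in 1 library of a group. Ighv1-54 held 144, 2352 and 675 reads in KO regulatory replicates 1 to 3 and Igkv6-20 held 141, 2665 and 760. Their shares in KO were 0.575%, 7.17% and 1.84% of heavy chain and 0.389%, 5.67% and 1.39% of kappa reads, beside 0.594%, 0.552% and 0.625% and 0.468%, 0.211% and 0.470% in WT regulatory libraries. Both were highest in replicate 2, next in replicate 3 and at the WT level in replicate 1. Neither passed the knockout test (log2 fold change 1.75, SE 0.72, adjusted p = 0.154 and log2 fold change 2.14, SE 0.71, adjusted p = 0.088). Ighv1-34, chosen after its values were seen, followed the same libraries with 74, 770 and 469 reads. Ighv1-54 at chr12:115193675-115194134 and Ighv1-34 at chr12:114851190-114851660 are shown to make plain that they are separate sequences, with 56 differences in their alignment and an identity of 84.0%. Their last 300 coding bases in GENCODE M21 stand below, 5′ to 3′, with 42 bases of each that have no match in the alignment in capitals. Where it sets a gap in each sequence, capitals are shifted against each other and some differing bases stand in lower case. Igkv6-20 is 98.6% identical to Igkv6-29, and 35.9% of its stretches of 50 bases are unique, so its counts are uncertain.
Ighv1-54: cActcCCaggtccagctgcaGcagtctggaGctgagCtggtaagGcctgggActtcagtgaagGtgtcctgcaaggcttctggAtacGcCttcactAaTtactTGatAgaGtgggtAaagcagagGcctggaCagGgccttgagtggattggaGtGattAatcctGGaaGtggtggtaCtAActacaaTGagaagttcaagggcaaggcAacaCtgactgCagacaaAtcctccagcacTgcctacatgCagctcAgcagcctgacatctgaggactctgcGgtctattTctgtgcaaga
Ighv1-34: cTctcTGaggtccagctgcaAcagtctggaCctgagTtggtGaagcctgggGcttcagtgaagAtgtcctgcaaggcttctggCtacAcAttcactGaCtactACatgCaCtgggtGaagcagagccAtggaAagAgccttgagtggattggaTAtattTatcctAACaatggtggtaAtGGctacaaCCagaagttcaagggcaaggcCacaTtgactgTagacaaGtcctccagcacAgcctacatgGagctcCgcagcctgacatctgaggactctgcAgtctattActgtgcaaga

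Other segments of this kind were scarcer. Igkv2-116 held 14, 37 and 111 reads and Ighv9-2 6, 50 and 92 reads in WT regulatory replicates 1 to 3. Both had most of their share in replicate 3. Over all 235 segments the nearest relative had a median coding sequence identity of 94.9%, 35 segments had one of at least 97%, and 29 had fewer than 50% unique stretches of 50 bases, so counts of close copies can be split or lost.

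Regulatory libraries held far more variable segment RNA than conventional ones in both genotypes. In WT, 199 of the 199 tested segments were higher in regulatory libraries and 0 lower (edgeR's quasi-likelihood test), 84.7% of the 235, beside 39.1% of all genes called higher, 33.3% called lower and 72.4% called either way. In KO, 195 were higher and 0 lower, 83.0% of the 235, beside 36.1% of all genes called higher, 31.7% called lower and 67.8% called either way. The counts of segments lower in regulatory libraries were 0 as well at an unadjusted p under 0.05 and with DESeq2 and limma-voom. Segments could pass the filter through the regulatory libraries alone, so these counts describe the segments that passed and are no support for the difference. The median log2 fold change was 8.50 in WT and 4.80 in KO beside 0.07 and 0.03 over all genes, or 7.74 and 4.39 with segments that were without a read in a conventional group at their lower bound. The 2 comparisons use different libraries. Scaled to 8 B cell genes, the calls came to 13 higher and 49 lower in WT and 2 higher and 130 lower in KO, with all-gene medians of -9.24 and -6.57.

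Several of the segments with the largest difference were without a read in conventional libraries. Against the floor of 3 reads over the WT conventional group, Ighv1-81 was at least 1572-fold, Igkv6-32 at least 1208-fold, Ighv1-78 at least 874-fold and Igkv4-50 at least 485-fold higher in WT regulatory libraries. Igkv6-32 stood at 41.7, 41.5 and 35.5 CPM there, Ighv1-78 at 22.3, 54.2 and 9.27 CPM and Igkv4-50 at 10.7, 25.8 and 11.1 CPM. In KO, the 4 with the largest fitted difference, Igkv9-129, Igkv10-95, Ighv8-5 and Igkv8-16, were without a read in all KO conventional libraries and at least 78.5-, 57.0-, 50.7- and 42.4-fold higher in regulatory ones. These 4 were also without a read in WT conventional libraries, so the largest fitted differences in KO mark scarce segments.

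The knockout difference itself differed between the cell types for 99 of the 199 tested segments, or 42.1% of the 235, all of them lower in regulatory libraries relative to conventional ones, beside 12.4% of all genes in that direction and 8.86% in the other, 21.3% in all (edgeR's quasi-likelihood test of the interaction). For the other direction the count was 0, also at an unadjusted p under 0.05 and with DESeq2 and limma-voom. In the stated direction DESeq2 called 119 and limma-voom 21. The median of the difference was -3.93 on the log2 scale, beside 0.02 over all genes. It includes the 76 tested segments without a read in WT conventional libraries, whose fitted values depend on a prior count, and no median with lower bounds was made. Segments could pass the filter through the regulatory libraries alone, and 47 were tested when only the 2 conventional groups were used. Lists of other genes went the same way. Of 16 B cell genes 14 were lower (median -3.02), of 11 constant genes 10 (median -4.16), of 10 plasma cell genes 7 (median -1.54), of 5 neutrophil genes 4 (median -6.46) and of 4 NK cell genes 4 (median -4.02). The macrophage and monocyte and the dendritic cell lists each had 4 of 5 lower, and the regulatory T cell and erythroid lists 3 of 4, and the part of these cell types was not tested. The count was 64 without WT conventional replicate 2 and 61 without replicate 3, 58 without both libraries of even counts and 97 without the 2 libraries holding Xist and Y-linked reads. The 6 segments with the smallest p were Igkv6-15, Ighv1-81, Ighv8-8, Ighv6-3, Ighv3-6 and Ighv1-80. Ighv3-6, for example, stood at 0.504, 0.521 and 0.0640 CPM in WT conventional, 4.16, 1.60 and 2.92 in KO conventional, 54.0, 72.7 and 41.6 in WT regulatory libraries and 23.7, 32.0 and 32.1 in KO regulatory ones. Its level was higher in every KO than in every WT conventional library and lower in every KO than in every WT regulatory library, and the difference of -3.93 had an adjusted p of 0.00145 (edgeR).

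Segments known from well-studied antibodies were mostly scarce. Ighv11-2 and Ighv12-3, used with Igkv14-126 and Igkv4-91 by B-1 cells that bind phosphatidylcholine, were without a read in 4 and in all 6 of the conventional libraries, and Ighv12-3 had 24, 55 and 40 reads in WT and 27, 22 and 28 reads in KO regulatory ones. Ighv11-2 fell in KO, from 1.95, 3.26 and 1.84 to 1.06, 0.544 and 0.456 CPM (log2 fold change -1.78, SE 0.42, adjusted p = 0.0366, edgeR), a call lost without KO conventional replicate 1, WT regulatory replicate 1 or 2 or KO regulatory replicate 2 or 3 (log2 fold change -1.46 to -1.89, adjusted p 0.0546 to 0.126). Its near copy Ighv11-1, at 98.9% identity, had 9 reads in all. Ighv12-3 did not pass (log2 fold change -0.89, adjusted p = 0.106). Igkv14-126 and Igkv4-91 stood at 4.44 to 14.6 and 20.5 to 37.6 CPM in WT libraries and 2.96 to 5.06 and 23.4 to 25.2 CPM in KO regulatory libraries, and neither passed in that comparison. In conventional libraries both rose in KO (log2 fold changes 3.94 and 2.67, adjusted p = 0.0371 and 0.0419), but without KO conventional replicate 3 these were 1.77 and 1.75 with adjusted p of 0.292 and 0.204. Leaving out WT conventional replicate 2 or 3 also ended both calls, at 2.21 to 4.28 with adjusted p of 0.0820 to 0.130. Igkv14-126 further lost it without WT conventional replicate 1 (adjusted p 0.0781), and Igkv4-91 without KO conventional replicate 2, WT regulatory replicate 1 or KO regulatory replicate 2 or 3 (adjusted p 0.0512 to 0.0726). By limma-voom Igkv14-126 and Igkv4-91 were not called in conventional libraries (adjusted p 0.289 and 0.299).

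Ighv7-1, the segment of antibodies against phosphorylcholine, stood at 0.135, 0.163 and 0.160 CPM in WT conventional libraries and 1.36, 0.172 and 1.15 CPM in KO conventional ones (log2 fold change 2.52, SE 0.91, adjusted p = 0.0389, edgeR). The call was lost without any 1 of the 3 WT conventional libraries or without KO conventional replicate 1 or 3 (adjusted p 0.0900 to 0.127). By limma-voom Ighv7-1 was not called (adjusted p 0.439). Its partner Igkv7-33 was without a read in conventional libraries and had 14, 39 and 2 and 4, 28 and 13 reads in WT and KO regulatory ones. Ighv1-72, the heavy chain partner of Iglv1 in antibodies against nitrophenyl, stood at 12.8, 18.7 and 9.85 CPM in WT libraries and 6.50, 7.62 and 7.26 CPM in KO regulatory libraries (log2 fold change -0.95, adjusted p = 0.197). Only 7.49% of its stretches of 50 bases are unique, so its level is uncertain. Ighv5-2, the functional segment nearest to the diversity segments and used early in life, had 10, 39 and 76 reads in WT and 44, 49 and 32 in KO regulatory libraries, and overlapped between the genotypes.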

How the data were processed

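Polyadenylated RNA of 12 libraries was sequenced with a stranded kit, per the series design. The deposited table holds the authors' raw counts of reads per Ensembl gene, with STAR and GRCm38 listed in the submitters' processing notes. The annotation release is not given in the sources used here. Reads with more than 1 mapping place, and reads of no single gene, stand in 4 tally entries outside the genes, which were not used. Reads with more than 1 mapping place made up 9.25% to 19.5% of all tallied reads per library, and reads of no gene 4.98% to 15.7%. Of 45706 IDs 45143 matched a symbol.

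Counts were tested in R 4.3.3 with edgeR 4.0.16: all 12 libraries in 1 fit with a term per group, filterByExpr (minimum count 10, minimum total 15), TMM scaling, the quasi-likelihood test (two-sided), Benjamini-Hochberg adjustment over 15922 genes and a threshold of 0.05. The biological coefficient of variation was 0.155. Alternatives used DESeq2 1.42.0, limma 3.58.1, other scalings and filters, and libraries left out. The scripts were tested on simulated data. Sequences, positions and pseudogene status came from GENCODE M21, matched by gene ID for all 235 segments, identities from edlib, and thinning used 200 draws. A fold against a group without reads uses a floor of 3 counts, and intervals a 95% level.

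The segments and lists were chosen with earlier results of these data known. Named segments are the 6 most abundant Ighv, 6 Igkv and all Iglv, the up to 4 largest changes per direction and comparison (at least 1 CPM, no overlap), 6 for the difference of effects, 9 known from antibody studies and 6 concentrated in 1 library. Germinal centre, marginal zone and B-1, immature B, octamer factor, NK and dendritic cell lists were also counted. Correlations of segments over the 12 libraries are not given, since conventional and regulatory libraries form separate clusters.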

Additional observations from a re-analysis of the deposited data

Results flagged for a closer look

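For 6 segments the knockout difference in regulatory libraries differed from that in conventional ones by a test of the difference itself (edgeR's quasi-likelihood test of the interaction, adjusted p under 0.05), and they are the 6 with the smallest p. The difference, regulatory minus conventional, was -7.04 on the log2 scale for Igkv6-15, -7.59 for Ighv1-81, -6.13 for Ighv8-8, -4.52 for Ighv6-3, -3.93 for Ighv3-6 and -6.02 for Ighv1-80. Ighv1-81 was without a read in WT conventional libraries, so the size of its value depends on the prior count. The other 5 held 4 to 33 reads summed over WT conventional libraries. By limma-voom, Igkv6-15, Ighv6-3 and Ighv1-80 lost the call (adjusted p 0.0579 to 0.0613). In groups of 3 libraries no single high or low value was tested for standing apart.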

How the results depend on the processing

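Of 978 repeats of 38 results for single named segments under 26 settings, 851 kept direction and call, 122 kept the direction and lost the call and 5 reversed. The 5 were changes of KO conventional libraries under scaling to 8 B cell genes, at -0.047 for Ighv1-26, -0.44 for Ighv1-53, -0.26 for Ighv7-1, -0.088 for Igkv1-135 and -0.14 for Igkv4-91. Counts of called segments, 94, 21, 199, 195 and 99 in the order KO against WT conventional, KO against WT regulatory, regulatory against conventional in WT and in KO, and the difference of effects, depended on the setting as follows, and the cause was not tested. For KO against WT conventional they were 42 at a threshold of 0.01, 60 scaled to 8 B cell genes, 16 with limma-voom, 35 with only the groups compared, where 47 segments were tested, and 55 without the 2 libraries of even counts. For KO against WT regulatory they were 0 at 0.01, 54 scaled to B cell genes, 38 with limma-voom, 34 without a filter, 7 with only the groups compared, 7 with the replicate number as a block, 13 without the 2 libraries of even counts and 40 with log2 Y-linked CPM as a term. Scaled to B cell genes the counts between cell types were 62 in WT and 132 in KO, mostly lower. For the difference of effects they were 33 at 0.01, 21 with limma-voom and 58 without the 2 libraries of even counts. Leaving out 1 library at a time gave 58 to 95, 1 to 43, 200 to 207, 194 to 201 and 61 to 103. It reversed the balance of calls between regulatory groups without WT regulatory replicate 2 (1 called, higher) and without KO regulatory replicate 1 (7 called, 4 higher). Under the block the other counts were 82, 199, 196 and 79, within 1.5 times of those above. The numbers are not taken to pair libraries, since correlations of same-numbered libraries of 2 genotypes ran from -0.726 to 0.437. Settings on even counts, the Y-linked term and the 2 libraries with Xist and Y-linked reads were chosen after seeing the data. Thinning to 100 reads moved the mean effective number to 24.4, 29.8 and 22.9 for Ighv in KO conventional, WT regulatory and KO regulatory libraries and to 27.0 and 25.8 for Igkv in WT and KO regulatory ones. Scaling to 6 T cell genes moved the summed segment CPM of KO regulatory libraries to 3655. Depth limits WT conventional libraries most, with 224 to 663 segment reads each.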

Other observations

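Genes of other B cell stages gave further values. Of 5 germinal centre B cell genes 4 were higher in KO than in WT conventional libraries by edgeR's quasi-likelihood test (median log2 fold change 0.91), and of 7 marginal zone and B-1 cell genes 5 (median 2.20). Between KO and WT regulatory libraries edgeR called 0 of the 5 and 0 of the 7, with 2 and 1 higher at an unadjusted p under 0.05, while DESeq2 called 0 and 1 and limma-voom 0 and 2 higher. Of 4 tested genes of immature B cells and recombination 1 was higher in KO regulatory libraries. This was Dntt, the enzyme that adds bases at the joints of antigen receptor genes, chosen after its values were seen. Dntt stood at 6.93, 5.95 and 6.76 CPM in WT regulatory and 18.7, 24.2 and 37.7 CPM in KO regulatory libraries, without overlap. In conventional libraries it stood at 10.4 to 12.3 CPM in WT libraries and 4.01 to 4.77 CPM in KO.

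Of 3 octamer factors of immunoglobulin promoters 1 was higher in KO conventional libraries and 0 were called between the regulatory groups by edgeR, with 1 higher at an unadjusted p under 0.05 and by DESeq2, and 0 by limma-voom. Summed over 4 NK cell genes the level was 31.9, 19.4 and 17.1 CPM in WT libraries and 274, 209 and 406 CPM in KO conventional ones, and all 4 were called higher. Of 5 dendritic cell genes all 5 were higher there.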
